A study of Arabidopsis thaliana with 7 samples.

Results

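The 7 genes described here encode transcription factors that position and maintain the stem cells of the root and shoot of Arabidopsis thaliana. They are SCARECROW (SCR, AT3G54220), SHORT-ROOT (SHR, AT4G37650), PLETHORA1 (PLT1, AT3G20840), PLETHORA2 (PLT2, AT1G51190), WUSCHEL-RELATED HOMEOBOX 5 (WOX5, AT3G11260), WUSCHEL (WUS, AT2G17950) and AINTEGUMENTA (ANT, AT4G37750). They were chosen by name and are 7 of the 27444 protein-coding genes on the nuclear chromosomes. For each gene, all ChIP-seq peaks of 7 libraries that reached by at least 1 base into the window from 3000 bp upstream to 1000 bp downstream of its transcriptional start site (TSS) were collected, 78 peaks in all.

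The 7 libraries came from chromatin of whole Col0 seedlings with a GFP fusion expressed from the gene's own promoter, with the genotype pE2FA-E2FA-GFP, pE2FB-E2FB-GFP, pE2FC-E2FC-GFP or pRBR-RBR-GFP. All seedlings were grown for 12 days according to the labels and were not treated, and the GFP antibody was the same in each. There were 2 libraries each of E2FA, E2FB and RBR, called replicate 1 and replicate 2, and a single replicate 1 library of E2FC. The set includes no library from plants without a GFP fusion, so a level of peaks without the tagged protein could not be measured. Stem cells are a small part of a whole seedling, and binding in fewer cells cannot be told apart from weaker binding in each cell.

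Each list held between 24883 and 28742 nuclear peaks. The fold enrichment of a peak is the ratio of its ChIP signal to the local background around it. The replicate 1 lists give its average over a broad peak and had medians between 1.62 and 1.81. The replicate 2 lists give it at the summit and had medians between 2.65 and 3.06. Fold enrichments were therefore compared within a list only, as a percentile, the share of the list's peaks with a lower fold enrichment. The peak of highest fold enrichment in the window is called the leading peak of a gene. Replicate and peak format cannot be told apart, and read depth is not recorded in the lists.

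E2F proteins are transcription factors of the cell cycle that bind DNA together with DP partners, and RETINOBLASTOMA-RELATED (RBR) joins them and represses their target genes. In the root tip, SHR moves from the stele into the neighbouring layer, where it acts with SCR on the identity of the endodermis and on the quiescent centre, the group of rarely dividing cells around which the root stem cells lie. WOX5 is expressed in the quiescent centre, PLT1 and PLT2 form a gradient along the root tip, WUS is expressed in the organising centre of the shoot meristem, and ANT promotes growth of lateral organs.

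Peaks of all 4 proteins were found near these genes. In the full window, ANT, SCR and WUS had leading peaks in the upper part of most lists, whereas SHR, WOX5, PLT2 and PLT1 had low-ranking peaks or none in several libraries. For SCR and ANT this position depended on which peaks were assigned to the gene, as the values below show. The sequences below are those under the strongest recurrent sites of ANT, SCR and WUS and at the E2F consensus upstream of PLT2, and for contrast the site of CLE40, the gene with the highest mean position among 36 other stem cell genes described further on. They were read from the RefSeq sequence of TAIR10.1 in the direction of transcription of each gene. Capitals mark matches to the E2F consensus TTNNCGNN, where each N is C or G, in PLT2 and CLE40. In ANT they mark a looser form NTTNNCNN, whose first N is A or T and whose other N are C or G. In SCR they mark the first 6 bases TTNNCG. The WUS stretch was searched for TTNNCG and has no capitals. Matches were searched on both strands. A TTNNCGNN match always holds a TTNNCG match, and the looser form can overlap either.
ANT: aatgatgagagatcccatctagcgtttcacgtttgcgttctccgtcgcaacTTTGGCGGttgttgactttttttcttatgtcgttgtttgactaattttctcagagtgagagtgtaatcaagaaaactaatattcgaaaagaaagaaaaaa
SCR: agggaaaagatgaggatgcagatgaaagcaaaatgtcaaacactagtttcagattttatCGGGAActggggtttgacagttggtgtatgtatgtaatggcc
WUS: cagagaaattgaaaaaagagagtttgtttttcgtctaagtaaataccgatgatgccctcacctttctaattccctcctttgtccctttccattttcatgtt
PLT2: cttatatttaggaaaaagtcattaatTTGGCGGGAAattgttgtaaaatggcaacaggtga
CLE40: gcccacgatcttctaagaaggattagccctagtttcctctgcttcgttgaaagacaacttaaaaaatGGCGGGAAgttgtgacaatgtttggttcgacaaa

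The ANT stretch is chr4:17736633-17736783 on the forward strand, from -2881 to -2731 bp of the TSS. It holds the summits of E2FA, E2FB and RBR in replicate 2. The SCR stretch is chr3:20069238-20069338 on the forward strand, from -749 to -649 bp, and holds the summits of E2FA and E2FB. The WUS stretch is chr2:7811250-7811350, printed from the reverse strand, from -539 to -439 bp. It holds the summits of all 3 proteins with replicate 2 libraries and no match to TTNNCG. The PLT2 stretch is chr1:18974665-18974725 on the forward strand, from -2511 to -2451 bp, where 2 consensus matches on opposite strands overlap. The CLE40 stretch is chr5:4110028-4110128, printed from the reverse strand, from -344 to -244 bp, and is centred on the E2FA summit of replicate 2. All 5 stretches lie upstream of the annotated start of their gene. A match on the other strand appears in them as its reverse complement, as in SCR and CLE40.

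**Figure D1:**
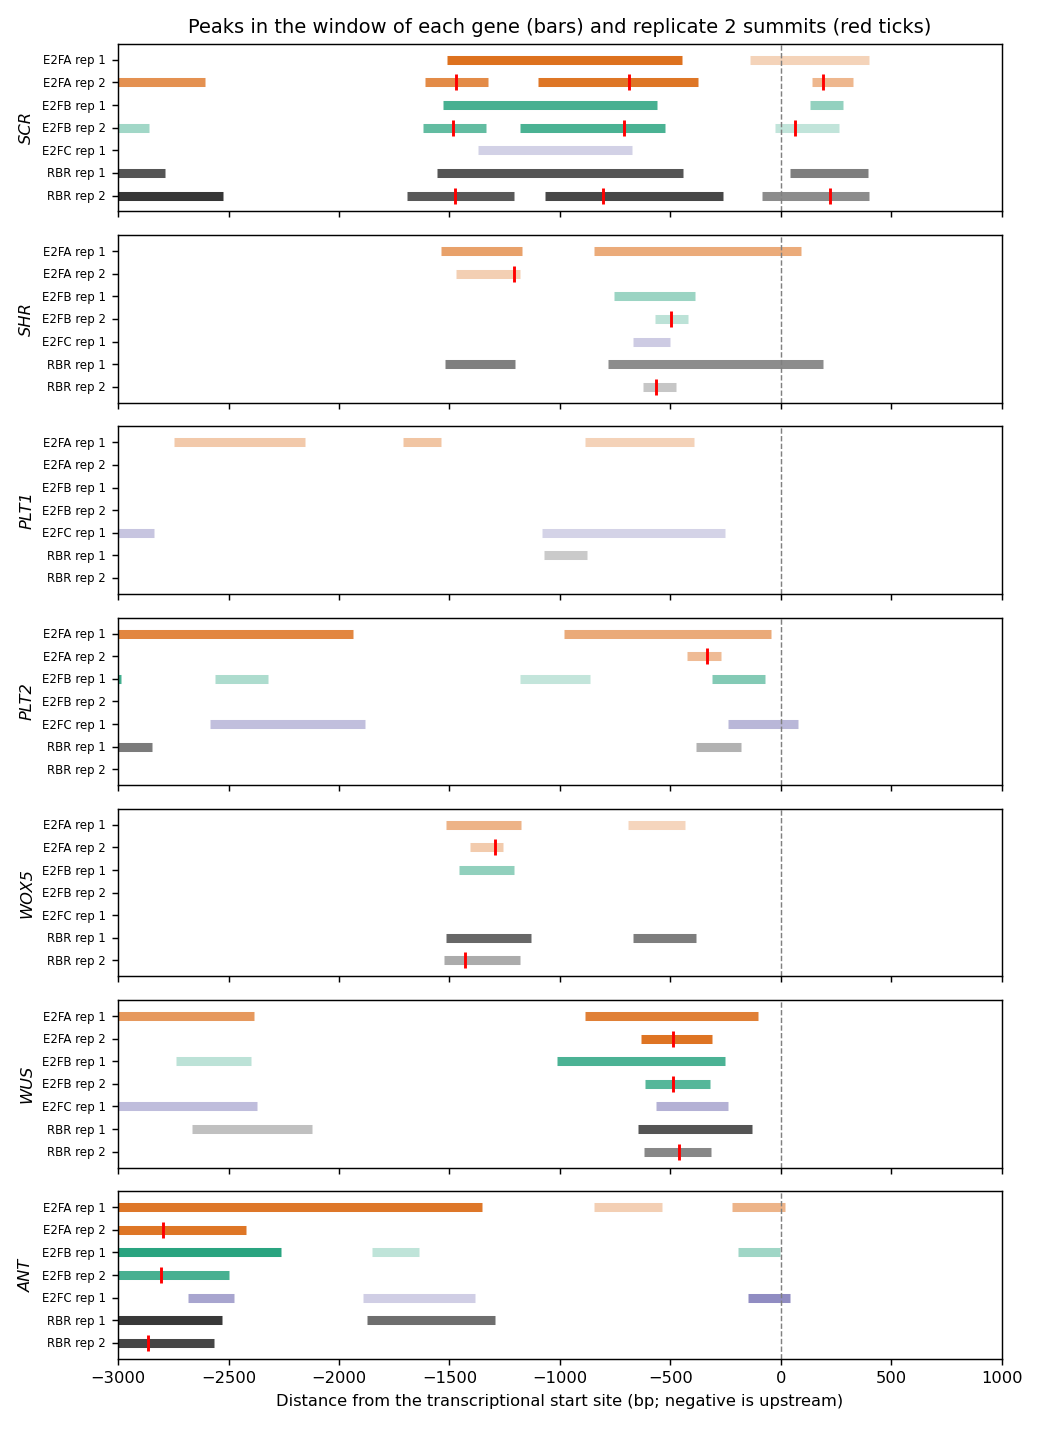
Peaks in the window of each of the 7 genes, drawn as bars by their distance from the TSS in bp (negative is upstream, dashed line at the TSS), with a row for each of the 7 libraries and a panel for each gene. Colours mark the tagged protein, darker bars have a higher percentile in their list, red ticks are replicate 2 summits and bars are clipped at the window. WUS has a bar near -489 bp in every row, ANT has a bar far upstream in every row and a further bar at the TSS in the replicate 1 rows of E2FA, E2FB and E2FC, and PLT1 has bars in 3 rows only.

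SCR and SHR are GRAS transcription factors that act together. SCR (chr3:20069987-20072878, forward strand) had a peak in all 7 libraries and 20 peaks in all. Its most frequent site lay between -1694 and -260 bp and was occupied in 7 of 7 libraries. The leading SCR peak of E2FA had a fold enrichment of 2.32 (percentile 85.6) in replicate 1 and 3.75 (percentile 81.0) in replicate 2. That of E2FB had 1.81 (percentile 74.1) in replicate 1 and 3.87 (percentile 72.4) in replicate 2. The E2FC peak had 1.44, at percentile 9.41 of its list. SCR thus ranked in the upper part of all lists but that of E2FC, which has 1 library and no measure of error.

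For RBR, the leading SCR peak had 2.00 (percentile 78.0) in replicate 1. In replicate 2 the window reached a peak of 3719 bp with a fold enrichment of 6.89, at rank 460 of 28742 and percentile 98.4. This peak entered the window by its edge only, since its summit lay at -4952 bp from the SCR TSS and nearest to AT3G54200, a gene of the late embryogenesis abundant hydroxyproline-rich glycoprotein family. The strongest RBR peak of replicate 2 with its summit inside the window had 4.88, at percentile 86.7 and -805 bp. SCR therefore had no peak in the top 10% of the list among peaks centred in its window.

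The main SCR site lies between divergent genes. AT3G54210, which encodes a ribosomal protein L17 family protein, is transcribed away from SCR and starts 1372 bp upstream of it. In replicate 2, the leading summits of E2FA and E2FB were at -689 and -709 bp from the SCR TSS and at -684 and -664 bp from that of AT3G54210, close to the middle of the shared upstream region. A second group of summits at -1472 bp with E2FA, -1485 bp with E2FB and -1473 bp with RBR lay in the 5' UTR of AT3G54210. The leading peak was nearer to a TSS other than that of SCR in all 7 libraries. A weaker site around the SCR start, between -140 and 398 bp, was found in 6 libraries, all but E2FC, with summits in the 5' UTR of SCR at 191 bp with E2FA, 64 bp with E2FB and 225 bp with RBR. It reached percentile 50.9 at most.

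SHR (chr4:17691687-17693859, forward strand) also had a peak in all 7 libraries, but weak ones. Its leading peak had percentiles of 45.1 with E2FA, 25.2 with E2FB, 14.6 with E2FC and 50.2 with RBR in replicate 1. In replicate 2 the percentiles were 6.61 with E2FA, 5.86 with E2FB and 3.65 with RBR, with fold enrichments of 1.90, 1.91 and 1.71. All 3 replicate 2 values lay below the 4 replicate 1 values. The peaks fell at different places. The E2FA summit was at -1207 bp, which is -204 bp from the start of the long noncoding RNA gene AT4G09525, whereas the summits of E2FB and RBR were at -495 and -567 bp, nearest to SHR itself. Of the 7 leading peaks, 3 lay nearer to AT4G09525 than to SHR.

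PLT1 and PLT2 belong to the AP2 family and act redundantly in the root meristem, and ANT is a relative in the same family. PLT1 (chr3:7300444-7303693, forward strand) had peaks in 3 of 7 libraries, the fewest of the 7 genes. They were those of replicate 1 with E2FA, E2FC and RBR, with leading percentiles of 14.7, 19.9 and 1.14. E2FB had no PLT1 peak in either library, and no protein had one in replicate 2. The 6 PLT1 peaks had fold enrichments between 1.35 and 1.50. The nearest gene upstream, UCNL, which encodes an AGC family kinase, starts 14001 bp away, so this is the longest upstream intergenic stretch of the 7 genes.

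PLT2 (chr1:18977176-18980618, forward strand) had peaks in 5 libraries. In replicate 1 the leading peak had percentiles of 67.6 with E2FA, 76.4 with E2FB, 33.5 with E2FC and 53.0 with RBR. In replicate 2 only E2FA had a peak, at -334 bp and percentile 22.8, and E2FB and RBR had none. The leading replicate 1 peaks of E2FA, E2FB and RBR were centred at -2921, -3414 and -3175 bp, nearer to the pseudogene AT1G51175 than to PLT2. The overlapping consensus pair printed above, around -2482 bp, lay under replicate 1 peaks of E2FA, E2FB and E2FC and under no replicate 2 peak.

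ANT (chr4:17739514-17742407, forward strand) had the highest position of the 7 genes. Its leading peak had percentiles of 79.6 with E2FA, 91.2 with E2FB, 74.1 with E2FC and 96.7 with RBR in replicate 1, where the RBR peak was at rank 902 of 27090. In replicate 2 the percentiles were 81.0 with E2FA, 74.4 with E2FB and 87.6 with RBR, with fold enrichments of 3.75, 3.96 and 4.96. All 7 values were at percentile 74.1 or above, and RBR gave the highest value in both replicates.

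The ANT peaks were distal. In replicate 2 the summits of E2FA, E2FB and RBR were at -2797, -2806 and -2864 bp, with a spread of 67 bp. In replicate 1 the leading peaks of E2FA, E2FB and RBR were 4054, 3088 and 2709 bp wide, reached beyond the upstream limit of the window, and had midpoints nearer to the long noncoding RNA gene AT4G09655 than to ANT. The E2FC library differed. Its leading ANT peak was centred at -54 bp (fold enrichment 1.84), while its peak at the distal site, from -2683 to -2474 bp, had percentile 50.2 and did not cover the looser consensus match. Weaker peaks near the start of ANT were present in replicate 1 with E2FA (percentile 28.9) and E2FB (percentile 22.6), and in no RBR library. With the window limited to 1000 bp upstream, the mean position of ANT among all genes dropped to 30.7, against 77.9 with the full window.

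WOX5 and WUS encode homeodomain proteins of the WOX family. WUS (chr2:7808871-7810811, reverse strand) had a peak in all 7 libraries at the same site, between -1011 and -101 bp. Its percentiles were 72.1 with E2FA, 71.8 with E2FB, 38.6 with E2FC and 78.7 with RBR in replicate 1. In replicate 2 they were 82.6 with E2FA, 65.6 with E2FB and 45.2 with RBR, with fold enrichments of 3.85, 3.57 and 2.88. The replicate 2 summits were at -489 bp with E2FA and E2FB and at -459 bp with RBR, the smallest spread among the 4 genes with a summit of each of the 3 proteins. In all 7 libraries the leading peak of WUS was nearest to the WUS TSS. A distal site between -3071 and -2121 bp, upstream of and within the neighbouring gene AT2G17960, was found in the 4 replicate 1 libraries and in no replicate 2 library.

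WOX5 (chr3:3527280-3528440, forward strand) had peaks in 5 libraries. Its site between -1527 and -1130 bp was occupied in all 5, with percentiles of 29.7 with E2FA, 31.2 with E2FB and 66.3 with RBR in replicate 1 and of 9.52 with E2FA and 21.4 with RBR in replicate 2. The summits were at -1292 bp with E2FA and -1428 bp with RBR. No WOX5 peak was listed for E2FC or in replicate 2 of E2FB. RBR had the highest WOX5 percentile in each replicate.

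**Figure D2:**
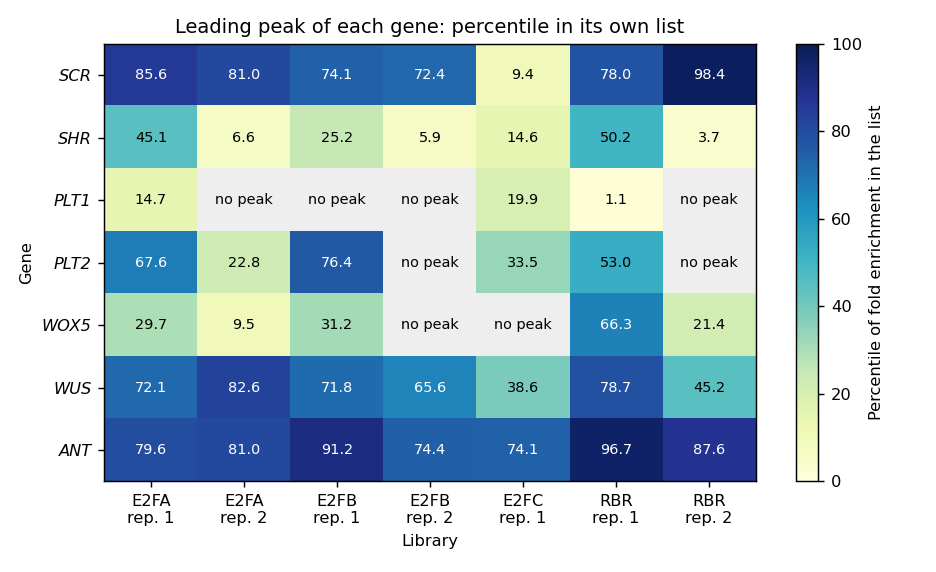
Percentile of the leading peak of each of the 7 genes (rows) in each of the 7 libraries (columns), as the share in percent of the list's peaks with a lower fold enrichment; darker cells are higher and grey cells have no peak in the window. The row of ANT is between 74.1 and 96.7 throughout, and the grey cells are in the rows of PLT1, PLT2 and WOX5.

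Related genes were set side by side. WUS had a higher leading percentile than WOX5 in 7 of 7 libraries. PLT2 was above PLT1 in 5 libraries, and neither gene had a peak in the remaining 2. SCR was above SHR in 6 libraries and below it in that of E2FC, with 9.41 for SCR and 14.6 for SHR. ANT was above PLT1 and above PLT2 in 7 of 7 libraries. The libraries share tissue and antibody, the distances between genes and their neighbours differ, and these orders were not tested.

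The number of the 7 genes with a peak was then read against all protein-coding genes, because a window of 4000 bp holds a peak at most genes. With E2FA, 7 of the 7 genes had a peak in replicate 1 (86.0% of all protein-coding genes) and 6 in replicate 2 (77.2%). With E2FB, 6 had a peak in replicate 1 (83.0% of all genes) and 4 in replicate 2 (82.1%). With E2FC, 6 had a peak (70.9% of all genes). With RBR, 7 had a peak in replicate 1 (85.0% of all genes) and 5 in replicate 2 (85.3%). A peak in all 7 libraries was found at 4 genes, SCR, SHR, WUS and ANT, and at 55.3% of all protein-coding genes. The presence of a peak thus did not set the 7 genes apart from the genome.

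Peaks in the top 10% of a list were counted in the same way, library by library. None of the 7 genes had one in the E2FA library of replicate 1 (14.1% of all protein-coding genes), the E2FA library of replicate 2 (15.1%), the E2FB library of replicate 2 (16.7%) or the E2FC library (10.9%). Only ANT had one in replicate 1 of E2FB (14.7% of all genes) and in replicate 1 of RBR (13.6%). Only SCR had one in replicate 2 of RBR (17.5%), which is the peak with its summit at -4952 bp. A top-10% peak in at least 1 library was therefore found at 2 genes, SCR and ANT, and at 38.0% of all protein-coding genes. Among peaks whose midpoint or summit lay in the window, none of the 7 genes had a top-10% peak, against 33.6% of all protein-coding genes.

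A fold enrichment above 3 together with q below 0.01 was reached at none of the 7 genes in any replicate 1 library, and at 2.49% of all protein-coding genes in at least 1 of these libraries. The highest fold enrichment of a whole replicate 1 list was between 3.21 and 4.34, so few genes could pass. In replicate 2 it was reached at 3 genes with E2FA (SCR, WUS and ANT, and 42.4% of all protein-coding genes), at the same 3 with E2FB (59.9% of all genes) and at 2 with RBR (SCR and ANT, and 63.4% of all genes). SCR and ANT reached it with all 3 proteins, as did 39.3% of all genes.

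**Figure D3:**
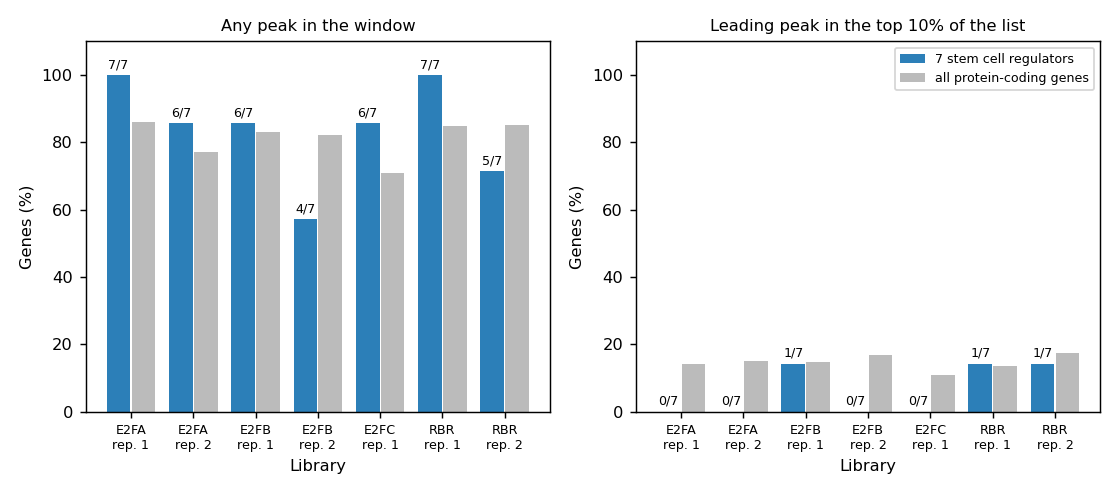
Share of genes in percent with any peak in the window (left panel) and with a leading peak in the top 10% of the list (right panel) in each of the 7 libraries, for the 7 stem cell regulators (blue, with their number) and for all protein-coding genes (grey). The blue bar for any peak is lowest in replicate 2 of E2FB, with 4 of 7 genes against 82.1% of all genes, and in the right panel no library has more than 1 of the 7 genes.

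The peaks near these genes recurred unevenly between replicates. Peaks of all libraries that overlapped each other were joined into 18 sites, of which 9 were found in both replicates, 9 in replicate 1 only and 0 in replicate 2 only. The split of sites over the whole genome was not computed. Replicate 1 has 4 libraries and replicate 2 has 3. A site of E2FC alone, such as 1 at PLT1, could only fall in replicate 1, since E2FC has no replicate 2 library. Sites of 7 libraries were 3 in number, those of SCR, WUS and ANT, and 4 sites were seen in 1 library. Of the 16 replicate 1 peaks of E2FA near the 7 genes, 7 overlapped an E2FA peak of replicate 2, against 60.5% of the whole list. The number was 5 of 13 with E2FB (74.4% of the whole list) and 7 of 14 with RBR (80.8% of the whole list). In the other direction, all 9 replicate 2 peaks of E2FA (84.1% of the whole list), all 7 of E2FB (83.7%) and all 8 of RBR (86.3%) overlapped a replicate 1 peak of the same protein. For all 3 proteins together, 44.2% of the replicate 1 peaks near the 7 genes recurred. Peaks at 1 gene are not independent of each other, so this difference was not tested.

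To place each gene among all protein-coding genes, its gene percentile was taken in each library, the share of protein-coding genes with a lower leading percentile, where a gene without a peak counts below any gene with a peak. Its mean over the 7 libraries was 77.9 ± 10.5 for ANT (SD, n = 7 libraries), 68.9 ± 19.5 for SCR and 58.8 ± 14.6 for WUS. It was 37.9 ± 23.6 for PLT2, 29.1 ± 10.3 for SHR, 26.6 ± 15.8 for WOX5 and 15.7 ± 10.8 for PLT1. The SD covers differences between proteins, replicates and peak formats together. Each gap between neighbours in this order, from 2.51 between SHR and WOX5 to 20.9 between WUS and PLT2, was smaller than the larger SD of the pair. That SD is of a single gene over the 7 libraries, which all genes share. It does not measure how a gap between genes varies within libraries.

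The order also changed with the assignment of peaks. When a peak was counted only where the nearest TSS was that of the gene, the mean gene percentile of SCR was 47.9, near the values of SHR (46.7), WOX5 (45.8) and PLT2 (45.5). PLT1 had 32.2, WUS had 75.4 and ANT had 73.6 under that rule, so WUS and ANT were above the other 5 genes. Every PLT1 and WOX5 peak met this rule already. Their rise from 15.7 and 26.6 therefore came from peaks lost at other genes. Values under this rule and in the full window are thus not on the same scale. With the window limited to 1000 bp upstream, SCR had 74.1 and WUS 68.1, while ANT, at 30.7, was below SHR and PLT2, both at 36.1.

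The median over the 7 genes was 37.9, against 42.6 for the 36 other stem cell genes and 49.8 for all protein-coding genes. It was 54.7 in the 4 replicate 1 libraries alone and 19.7 in the 3 replicate 2 libraries alone. Single replicate 1 libraries gave medians over the 7 genes from 38.1 to 63.7, and single replicate 2 libraries gave 19.1 to 30.4. PLT2 differed most between replicates, with means of 15.6 in replicate 2 and 54.7 in replicate 1, whereas SCR was higher in replicate 2, at 77.2, than in replicate 1, at 62.6. The SCR value of replicate 2 includes 96.7 from the RBR peak with its summit at -4952 bp.

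**Figure D4:**
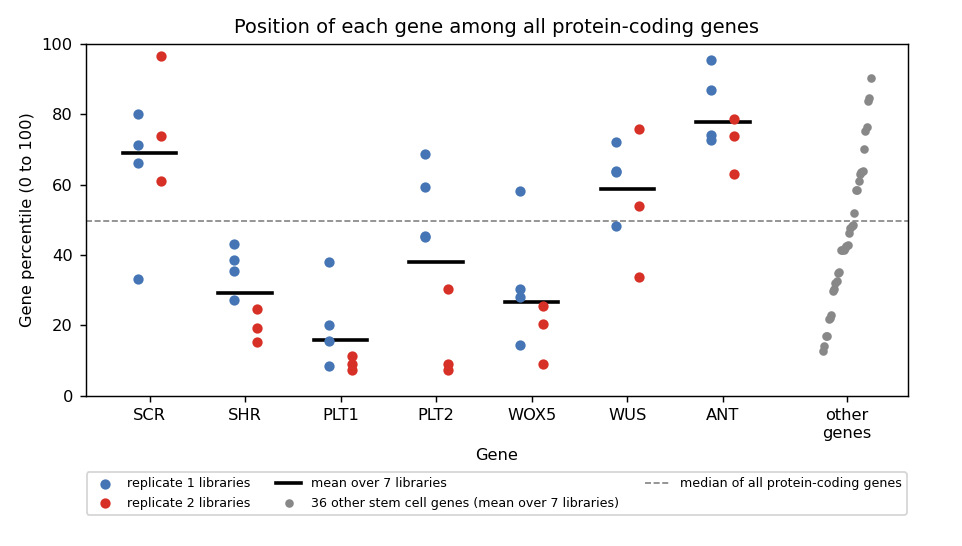
Gene percentile (0 to 100) of each of the 7 genes in the 4 replicate 1 libraries (blue points) and the 3 replicate 2 libraries (red points), with the mean over 7 libraries as a black bar; grey points are the means of 36 other stem cell genes in order of size and the dashed line is the median of all protein-coding genes, 49.8. ANT, SCR and WUS have means above the dashed line and the other 4 genes below it, and all replicate 2 points of these 4 genes are below it.

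Replicate 2 summits of all 3 proteins were present in the window of 4 genes, and the summits nearest to the TSS were compared there. At 2 of them they were no more than 100 bp apart, WUS with a spread of 30 bp and ANT with 67 bp, as at 49.7% of the 19891 protein-coding genes with a summit of each protein. The spread was 161 bp at SCR and 712 bp at SHR. At SCR the leading summits of E2FA and E2FB, at -689 and -709 bp, were 20 bp apart.

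The E2F consensus TTNNCGNN was searched within 100 bp of the replicate 2 summits. It was found at none of the 6 genes with a summit and at 12.0% of the 23481 protein-coding genes with a summit. For comparison, 6.93% of all E2FA summits, 5.76% of all E2FB summits and 3.66% of all RBR summits had a match. Among the 500 summits of highest fold enrichment the shares were 65.0% for E2FA, 59.6% for E2FB and 16.8% for RBR. Anywhere in the window, 2 of the 7 genes held the consensus, SHR with a match at 906 bp in its coding sequence and PLT2 with 3 matches, of which 2 are those printed above, against 34.2% of all protein-coding genes.

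With the looser form NTTNNCNN, 1 gene had a match within 100 bp of a summit, ANT, against 27.5% of genes with a summit. It is the TTTGGCGG in capitals above, 21 bp from the E2FB summit and under peaks of 6 libraries, all but E2FC. Of all windows, 73.1% held this form. With the 6 bases TTNNCG, a form chosen after the other results had been seen, 2 genes had a match near a summit, SCR and ANT, against 35.7% of genes with a summit, and 90.7% of all windows held it. The SCR match nearest to a summit, TTCCCG on the reverse strand at -688 bp, was 1 bp from the E2FA summit and under peaks of all 7 libraries. A further SCR match, TTGCCG on the reverse strand at 52 bp in the 5' UTR of SCR, was 12 bp from the E2FB summit. It lay under peaks of 4 libraries, E2FA replicate 1, E2FB replicate 2 and both of RBR. These matches describe the sequence, and no binding to them was measured.

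The same counts were made for 36 other genes of root and shoot stem cell pathways, such as the WOX and CLAVATA families and partners of SCR. A peak in all 7 libraries was found at 20 of 36 (55.6%, against 55.3% of all protein-coding genes). A top-10% peak in at least 1 library was found at 14 of 36 (38.9%, against 38.0% of all genes). In addition, 8 of 36 (22.2%, against 39.3% of all genes) passed a fold enrichment of 3 with q below 0.01 for all 3 replicate 2 proteins. Peaks in the top 10% of at least 4 lists were found at 2 of the 36 genes. The share of all genes was not computed for this last count. CLE40, which encodes a signalling peptide of the root tip, had them in 5 lists, namely both E2FA lists, both E2FB lists and E2FC. Its fold enrichment in replicate 2 was 12.3 with E2FA at rank 175, 12.2 with E2FB at rank 185 and 4.63 with RBR. Its consensus match, in capitals above, lay between 20 and 104 bp from its leading summits. SCL3, which encodes a GRAS protein of gibberellin signalling, also had them in 5 lists, with percentiles of 95.2 and 97.9 in the RBR lists. No ANT, SCR or WUS peak reached a top-10% rank in as many lists.

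Each of the 36 genes had a peak in at least 1 library, and the fewest peaks were at WOX9, with a peak in the E2FC library only. WOX9 and CYCD6;1, a D-type cyclin gene that acts downstream of SHR and SCR in root patterning, were picked after their values had been seen. The leading CYCD6;1 peak was at percentile 96.0 with E2FC, and at 77.6 with E2FA, 69.2 with E2FB and 27.8 with RBR in replicate 1. In replicate 2 it had a peak with RBR only, at percentile 6.49.

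The gene most like each of the 7 was the protein-coding gene with the smallest mean absolute difference in gene percentile over the 7 libraries. For SCR it was the divergent neighbour AT3G54210, with a difference of 2.72, which shares peaks of the common upstream region. For SHR it was GLN1;4, a glutamine synthetase gene (3.41), for PLT1 the gene MLP168 (0.602), for PLT2 the calmodulin gene CAM8 (5.18) and for WOX5 AT5G62970 (3.28). For WUS it was AT1G20070, tied with another gene (4.73), and for ANT it was AT2G28320 (3.65). All genes without a peak have the same gene percentile in a library. PLT1 had a peak in only 3 libraries, so its small difference can come from shared absence of peaks.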

How the data were processed

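ChIP-seq with an antibody against GFP was performed on whole seedlings with tagged E2FA, E2FB, E2FC or RBR, and 7 deposited peak lists were analysed, each on its own. The authors mapped trimmed reads to TAIR10 and called peaks library by library. The submitters' processing notes name Trimmomatic 0.38, Bowtie2 2.3.5, SAMtools 1.9 and MACS2 2.2.7.1. The deposited fold enrichment is a ratio of ChIP signal to local background as computed by the authors, who gave p and q of each peak as −log10 values. Replicate 1 is in broad and replicate 2 in narrow peak format. Peak names of replicate 2 point to a later version of the caller. The methods of the study give an older age of the seedlings than the labels. Read depth, control libraries and signal tracks were not analysed here.

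Peaks on the 5 nuclear chromosomes were used, and between 4 and 97 organelle peaks per list were left out. TSSs were taken from the RefSeq annotation (TAIR10.1) as the start of the gene on its strand. Ties count 0.5 in percentiles. No p-values were computed, because genes were named rather than sampled and each protein has at most 2 libraries. The 7 genes and the gene lists were chosen with earlier results of these data known. Genes named singly were the 7, other stem cell genes with a top-10% leading peak in at least 4 libraries or with no peak, the most similar gene, and the gene of the nearest TSS. WOX9 and CYCD6;1 fall outside this rule and were named after their values had been seen. The alternatives, 48 in number, varied the window, assignment, thresholds, ranking, background, consensus and libraries. The LxCxE search in proteins was not run. Python 3.11.15, numpy 2.4.6, pandas 2.3.3 and matplotlib 3.10.9 were used, and the functions were tested on simulated data.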

Additional observations from a re-analysis of the deposited data

How the results depend on the processing

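The number of genes with a peak in every library, 4, was 2 with the window cut to 1000 bp upstream and 1 with 500 bp. It was 2 where the nearest TSS had to be the gene's own and 2 with q under 0.01. It was 0 with that q together with a fold enrichment above 2 or above 3, and 5 in replicate 1 alone. The share of all genes was not computed under these settings. The highest fold enrichment of a whole replicate 1 list was between 3.21 and 4.34, so few genes of any kind could pass 3. The number with a top-10% peak, 2, was 0 with either shorter window, 0 when the midpoint or summit had to lie in the window, 0 with the gene's own TSS nearest, 1 with a fold enrichment above 3 and q under 0.01, 4 for the top 25%, and 1 in replicate 1 alone as in replicate 2 alone. Without single libraries it ranged between 1 and 2, with 1 without RBR replicate 2, whose SCR peak has its summit outside the window. Genes with summits within 100 bp, 2, were 1 with either shorter window and 1 within 50 bp. They were 3 within 200 bp, and 3 without replicate 2 of E2FA or of E2FB, where fewer summits had to lie together. Genes with a consensus near a summit, 0, were 1 with NTTNNCNN and 2 with TTNNCG, which was chosen after seeing the data. The cause was not tested. The other 51 values of these counts and of the median gene percentile were classed as close to the main value. The counts of 5 and 3 above are among them, as are medians of 54.7 in replicate 1 alone and 19.7 in replicate 2 alone. With a fold enrichment above 3 and q under 0.01 the median, 37.9, was fixed by genes without a passing peak. SHR, PLT1, PLT2 and WOX5 had none and all took that value, so its closeness shows no stability. Counts and percentiles have no sign, so a change of direction could not be assessed. With the gene's own TSS nearest, mean gene percentiles moved by more than their SD for SCR (47.9), SHR (46.7), PLT1 (32.2), WOX5 (45.8) and WUS (75.4). At PLT1 and WOX5 all peaks met that rule already, so their moves came from peaks lost at other genes. The mean of ANT moved by more than its SD with the windows of 1000 bp (30.7) and 500 bp (34.6). It did so too with the midpoint or summit in the window (60.1) and with a fold enrichment above 3 and q under 0.01 (59.2). For PLT1 the same thresholds gave 37.9, also beyond its SD, but no PLT1 peak passed them. That value is the mean of those given to a gene without a peak. No paired test was run, since the results are counts, medians and values given without a test. Related genes were only set side by side within each library. Read depth was not analysed, so what the absence of a weak peak can show was not measured.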
